A study of Mus musculus with 12 samples.

Results

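The genes described here are 34 members of insulin signalling, the mTOR pathway and cellular energy sensing, taken by name from a list and each read from the brightest array probe that names that gene alone. Such a probe was found for 33 of the 34, out of 19902 genes measured in this way. Rps6kb1, which encodes S6 kinase 1, a main substrate of the mTOR kinase, was not measured here. The rule names the genes and uses no measured value, but the list was drawn up with earlier results of these data known.

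Each of the 12 arrays held RNA of cones, the photoreceptors of daylight and colour vision, that were isolated by cell sorting from C3H/HeNCrl retinas. The strain is homozygous for Pde6b rd1, a defect of the rod phosphodiesterase that kills rods early and cones later. To mark the cones, a viral vector (AAV) was given subretinally to young animals, with mCAR, the cone arrestin promoter of the mouse, in front of a fluorescent protein. EGFP served as the control, with 4 arrays from mice aged 110 days and 4 from mice aged 220 days, made from 500 cells apiece. The eNpHR-EYFP arrays, also 4, came from mice aged 165 days and from 300 cells apiece. eNpHR is a light-driven chloride pump that serves as a light sensor in cones that no longer respond to light, and EYFP is a yellow fluorescent tag. Every group carries both the rd1 mutation and the virus, and retinas without either were not analysed here. The labels call the arrays biological replicates and do not say how many animals each stands for, so p-values measure the spread between these samples. The construct, the count of cells put in, and an age course that departs from a straight line cannot be told apart when eNpHR-EYFP is set against EGFP. Any difference in array processing between EGFP and eNpHR-EYFP would also coincide with the construct, and was not tested.

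Insulin and insulin-like growth factor bind receptors that act through adaptor proteins on PI3-kinase, which switches on PDK1 and AKT. AKT restrains the TSC complex, so that the small GTPase RHEB can activate mTOR complex 1, which promotes protein synthesis and holds back autophagy. AMP-activated kinase and several stress proteins oppose mTOR complex 1 when energy or nutrients run short, and AKT keeps FOXO transcription factors out of the nucleus. In rd1 retinas the loss of cones after the rods has been linked to a shortage of nutrients and to changes along this pathway. Most of its steps are phosphorylations, which arrays do not measure.

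Levels are log2 of the deposited array intensity and are given in the order of the replicate numbers 1 to 4. Median intensities of 6.6 to 7.1 were read across the 12 arrays. The upper end differed, with a 95th percentile between 115 and 135 for EGFP and between 173 and 186 for eNpHR-EYFP. Because the bright end of the scale differed between the groups, each result was also computed after quantile normalization, which gives all arrays 1 distribution of values. In the deposited table the EGFP columns were shifted against the probe names from line 13588 on, and they were realigned. Of the 33 member probes, 10 stood in place, and the EGFP values of the others were moved by 5 to 18 lines.

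The sorts were checked against markers of retinal cell types. The mean log2 level of 12 cone markers lay between 4.77 and 7.53 on the arrays of 110 days, 5.89 and 6.79 on those of 220 days, and 6.81 and 8.32 on the eNpHR-EYFP arrays. Arr3, the cone arrestin gene, read 8.92 and 9.64 on replicates 2 and 3 of 110 days but 4.59 and 5.29 on replicates 1 and 4, against 6.72 to 8.42 at 220 days and 9.41 to 10.85 with eNpHR-EYFP. The mean of 8 Müller glia markers was 5.45 to 6.57, 6.34 to 6.60 and 6.36 to 7.68 in the same order of groups, that of 8 amacrine cell markers 4.01 to 4.67, 4.51 to 5.30 and 4.50 to 5.41, that of 6 ganglion cell markers 2.90 to 3.11, 3.0 to 3.11 and 3.43 to 3.62, and that of 8 microglia markers 2.40 to 2.62, 2.39 to 2.57 and 2.69 to 2.74. Between eNpHR-EYFP and the mean of both EGFP ages, 3 of 12 cone, 2 of 7 rod, 2 of 8 Müller glia, 1 of 7 bipolar cell, 3 of 8 amacrine cell, 4 of 6 ganglion cell, 0 of 4 horizontal cell, 4 of 8 microglia, 0 of 4 endothelium, 1 of 4 pigment epithelium and 0 of 1 red blood cell markers were called higher, where 23% of all genes were. The cone (25%) and Müller glia (25%) shares of calls are near that background, but their levels were not alike between the groups. The median log2 difference was 1.31 over cone markers, 11 of 12 of them positive, and 0.77 over Müller glia markers, 7 of 8 positive, against 0.07 over all genes. The ganglion cell (66.7%), microglia (50%) and amacrine cell (37.5%) shares lay above the background, and the bipolar cell share (14.3%) below it. Called lower were 1 cone, 1 bipolar cell and 1 horizontal cell marker, where 10.1% of all genes were. After quantile normalization the higher calls were 2 cone, 0 rod, 2 Müller glia, 1 bipolar cell, 2 amacrine cell, 2 ganglion cell and 2 microglia markers and 0 in the other lists, and the lower calls were 1 each among cone, Müller glia, bipolar cell, amacrine cell, horizontal cell and endothelium markers. The bipolar cell mean was 4.2 to 4.7, 4.8 to 5.5 and 4.4 to 5.0 in the same order of groups. The Müller glia, amacrine, bipolar, rod and ganglion cell means thus lay above the median level of all genes, 2.86, on every array. The microglia, endothelium and pigment epithelium means and the red blood cell marker lay below it, so these do not show that such cells were present. The part of other cells in the results was not tested. A smaller share of a cell type and less RNA per cell cannot be told apart in such samples.

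The first comparison set the eNpHR-EYFP arrays against the mean of both EGFP ages. Of the 33 measured members, 10 were higher in eNpHR-EYFP cones, namely Igf1r, Irs1, Gsk3b, Rheb, Mtor, Rptor, Rictor, Eif4e, Foxo1 and Prkaa1, and 2 were lower, Pik3ca and Ulk1. The other 21 did not pass the threshold, an adjusted p under 0.05 by limma with Benjamini-Hochberg adjustment over 34615 probes. The higher members are 30.3% of those measured, where 23% of all genes were called higher, and the lower ones 6.06%, where 10.1% of all genes were called lower. The median log2 difference was 0.15 over the members and 0.07 over all genes. Of the 33 members 25 lay above the median level of all genes, 2.86, and the shares were not compared at equal level.

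After quantile normalization 6 members were higher and 5 lower, which is 18.2% and 15.2% of those measured against 16.1% and 12.4% of all genes. Among all genes the split moved from 4576 higher and 2008 lower to 3211 higher and 2466 lower. Foxo1, Gsk3b, Igf1r, Mtor, Rictor, Rptor, Pik3ca and Ulk1, 8 members, were called in the same direction under both scalings. The calls of Rheb, Eif4e, Irs1 and Prkaa1 were lost, and Hif1a, Deptor and Pdpk1 were called lower only after quantile normalization. On the deposited scale all 4 eNpHR-EYFP arrays lay above all 8 EGFP arrays at 6 members, 18.2% of those measured, where 14.2% of all genes did so. They lay below all EGFP arrays at 0 members, where 6.15% of all genes did so.

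**Figure D1:**
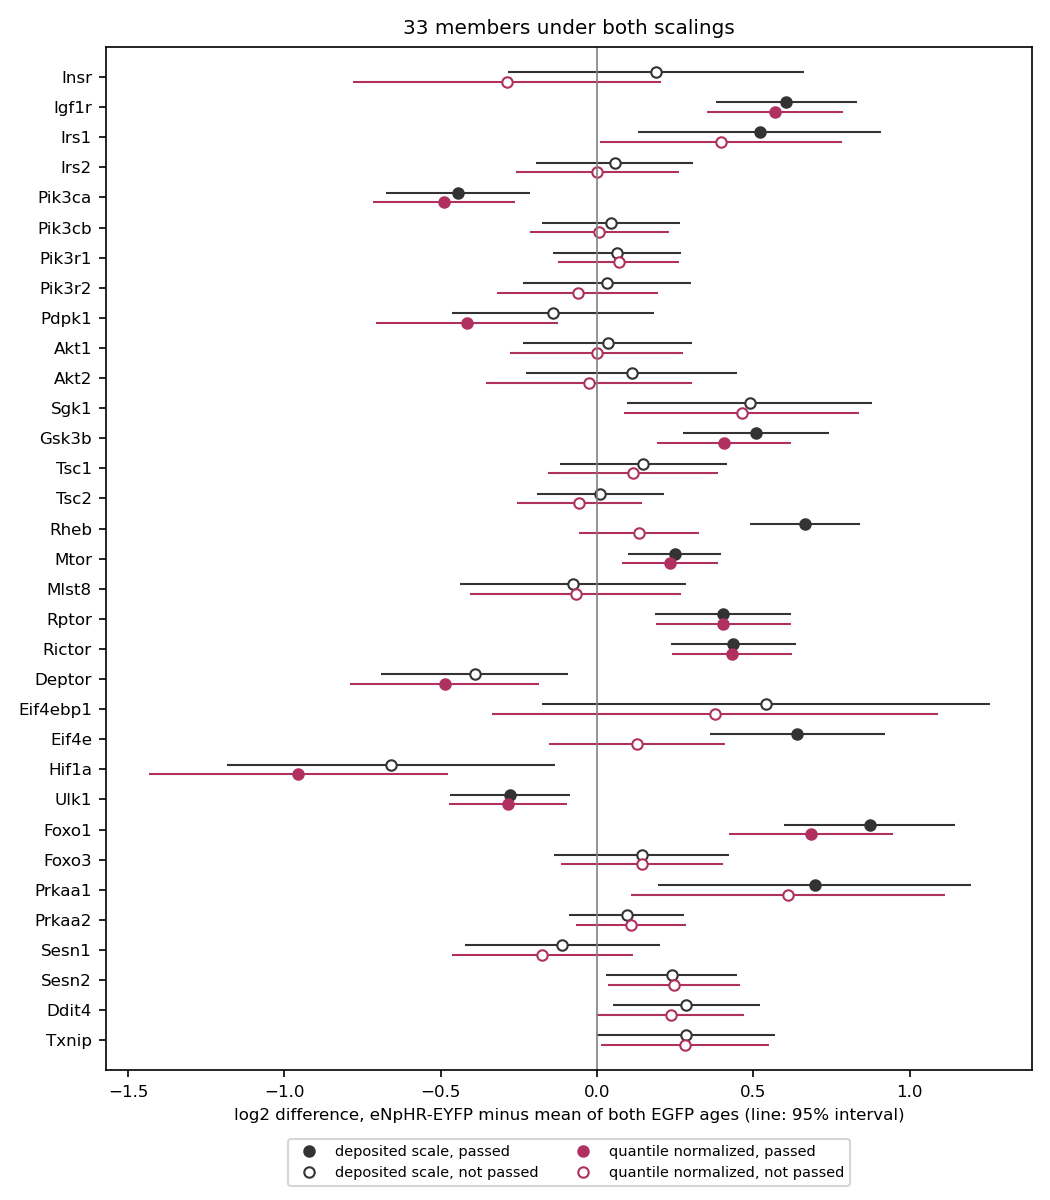
Log2 difference of 33 members between the eNpHR-EYFP arrays and the mean of both EGFP ages, with 95% intervals (horizontal axis, log2 units), on the deposited scale (dark) and after quantile normalization (red). Filled points passed an adjusted p under 0.05: Rheb moved from 0.66 to 0.13 between the scalings and Hif1a from -0.66 to -0.96, while Igf1r, Rptor and Rictor kept nearly the same value.

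Promoters were looked up in a RefSeq table of build GRCm38.p6 that gives 250 bases before and 50 after each start site. It matched 31 of the 34 members through 44 windows, and Insr, Deptor and Eif4ebp1 were not in it. Windows were searched on both strands for the E-box CACGTG, read by MYC, USF and TFEB family factors, for the FOXO element GTAAACA, and for TGATGNAA, a core of the response element that ATF4 reads when amino acids run short. The E-box was found in 6 of 44 member windows (13.6%), belonging to Eif4e, Hif1a, Irs1, Irs2, Rheb and Sgk1, against 7.15% of 32851 windows in all. The FOXO element was found in 3 (6.82%, against 3.65%), those of Akt1, Sesn1 and Txnip, and the ATF4 core in 1 (2.27%, against 3.97%), that of Akt2. No member window held more than 1 kind of these motifs, though an Eif4e window held the E-box at -228 and again at -64. The median GC content was 64.0% over member windows and 52.7% over all, and the matches were not compared at equal GC content.

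The 250 bases before the start site are printed for 3 higher members that hold an E-box, with the motif in capitals, and for Foxo1, which had the largest difference of any member on the deposited scale and no match. All are written 5′ to 3′ on the gene's strand. Rheb lies on the minus strand (chr5:24842362-24842611), Irs1 on the minus strand (chr1:82291440-82291689), Eif4e on the plus strand (chr3:138527018-138527267, the second of 2 start sites in the table) and Foxo1 on the plus strand (chr3:52268087-52268336).
Rheb: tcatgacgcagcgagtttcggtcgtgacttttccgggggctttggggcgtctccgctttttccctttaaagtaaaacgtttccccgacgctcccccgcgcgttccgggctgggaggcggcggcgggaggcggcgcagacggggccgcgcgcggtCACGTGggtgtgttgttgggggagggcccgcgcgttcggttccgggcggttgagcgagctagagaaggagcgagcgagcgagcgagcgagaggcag
Irs1: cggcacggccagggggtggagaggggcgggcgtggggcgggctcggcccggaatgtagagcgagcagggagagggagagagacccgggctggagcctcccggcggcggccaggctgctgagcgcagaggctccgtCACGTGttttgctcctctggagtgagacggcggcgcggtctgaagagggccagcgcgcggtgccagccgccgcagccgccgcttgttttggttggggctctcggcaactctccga
Eif4e: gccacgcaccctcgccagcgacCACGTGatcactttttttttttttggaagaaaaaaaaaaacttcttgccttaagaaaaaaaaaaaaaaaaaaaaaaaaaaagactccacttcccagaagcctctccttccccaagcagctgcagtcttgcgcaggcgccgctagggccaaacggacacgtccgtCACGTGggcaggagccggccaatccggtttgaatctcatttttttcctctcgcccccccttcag
Foxo1: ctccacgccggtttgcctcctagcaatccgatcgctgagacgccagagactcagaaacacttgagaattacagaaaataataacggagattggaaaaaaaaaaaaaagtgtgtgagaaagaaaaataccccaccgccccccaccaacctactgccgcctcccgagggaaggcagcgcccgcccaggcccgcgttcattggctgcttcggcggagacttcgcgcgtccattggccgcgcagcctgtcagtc
Counted from the start site, the E-box begins at -96 in Rheb, at -115 in Irs1, and at -228 and -64 in Eif4e. A match is a description of letters, and binding at these windows was not measured here. The members with an E-box were called higher in 3 cases (Rheb, Irs1 and Eif4e) and were not called in the other 3 (Irs2, Sgk1 and Hif1a), and the calls of those 3 higher members were the ones lost after quantile normalization together with that of Prkaa1.

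**Figure D2:**
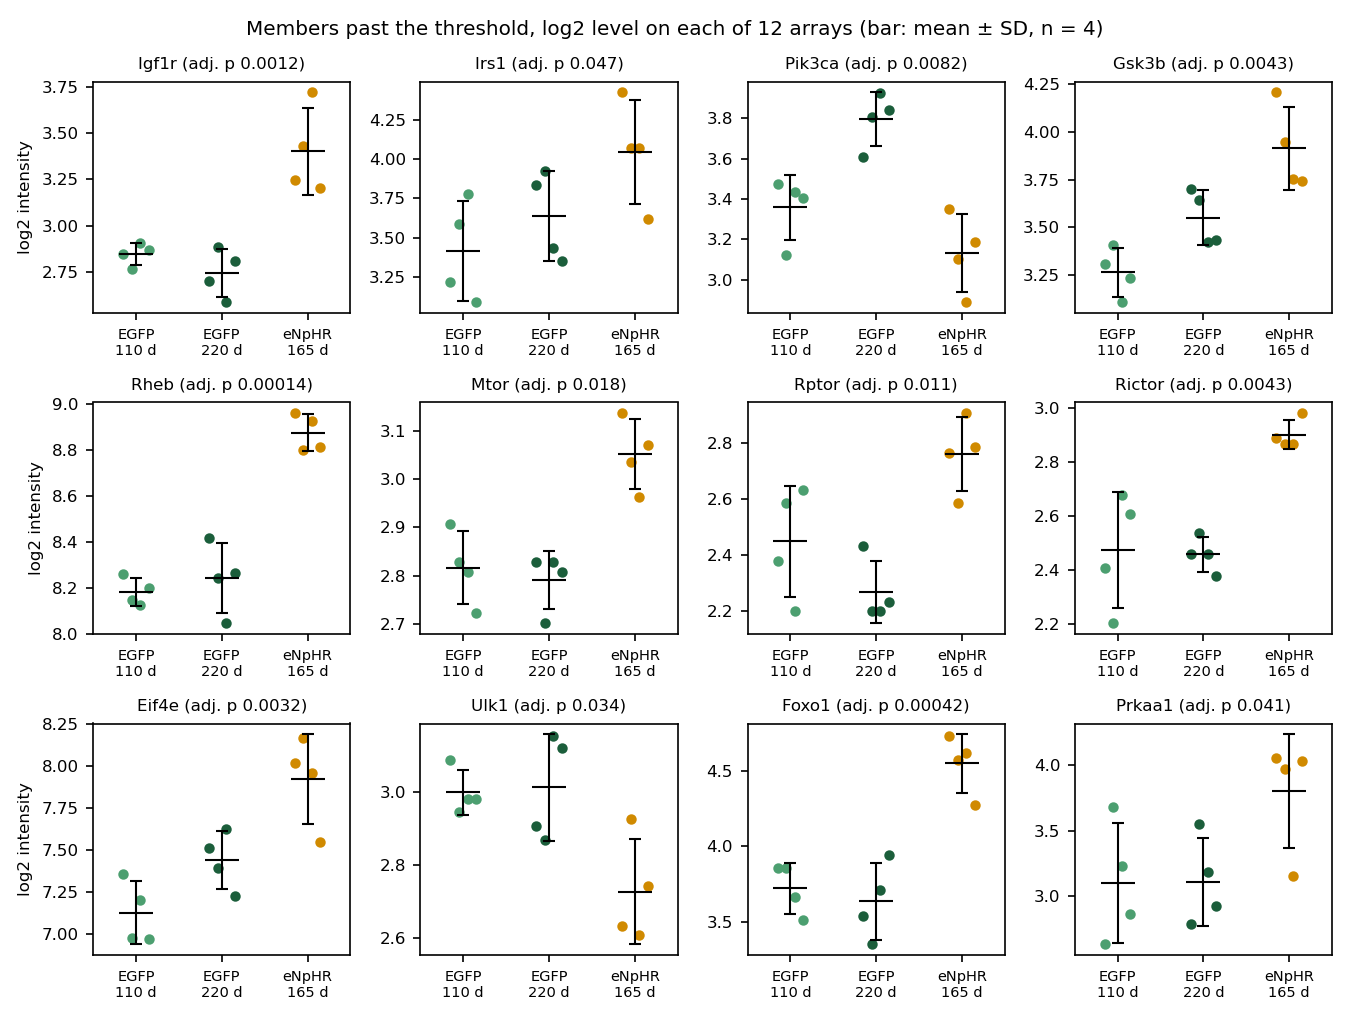
Log2 intensity (vertical axis, scaled per panel) of the 12 members past the threshold on each array, with the mean ± SD of each group of 4. At Igf1r, Gsk3b, Rheb, Mtor, Rictor and Foxo1 every eNpHR-EYFP point lies above every EGFP point, while Irs1, Prkaa1, Eif4e, Rptor, Pik3ca and Ulk1 overlap.

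At the cell surface, the receptor for insulin-like growth factor was higher and the insulin receptor was not called. Igf1r (probe 10554094) read 2.85, 2.77, 2.91 and 2.87 on the EGFP arrays of 110 days, 2.70, 2.89, 2.58 and 2.81 on those of 220 days, and 3.25, 3.43, 3.72 and 3.20 on the eNpHR-EYFP arrays. All eNpHR-EYFP values lay above all EGFP values, and the EGFP ages overlapped. The log2 difference was 0.61 ± 0.10 (SE, adjusted p = 0.00121 by limma), and 0.57 after quantile normalization (adjusted p = 0.00198). The mean over the EGFP arrays, 2.80, lay below the median level of all genes, 2.86, so no fold is given.

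Insr, the insulin receptor gene, read 7.0, 6.19, 5.66 and 6.25 at 110 days, 6.94, 6.50, 7.20 and 6.62 at 220 days and 6.89, 6.42, 6.79 and 6.85 with eNpHR-EYFP. The 110-day arrays spread widely, with replicate 3 lowest and replicate 1 inside the range of 220 days, and the eNpHR-EYFP values lay inside the EGFP range. Its difference was 0.19 with a 95% interval of -0.28 to 0.66 and turned to -0.29 after quantile normalization (adjusted p = 0.392). A second Insr probe gave -0.04 (adjusted p = 0.686).

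Irs1 and Irs2 encode the adaptors that link both receptors to PI3-kinase. Irs1 (probe 10347792) read 3.22, 3.58, 3.78 and 3.09 at 110 days, 3.84, 3.93, 3.43 and 3.35 at 220 days and 4.43, 4.07, 4.07 and 3.62 with eNpHR-EYFP. Replicates 1, 2 and 3 of eNpHR-EYFP lay above all EGFP arrays, and replicate 4 lay within their range. The difference was 0.52 ± 0.18 (adjusted p = 0.0473), and 0.40 after quantile normalization (adjusted p = 0.129). The call was lost when replicate 1, 2 or 4 of 110 days, 3 or 4 of 220 days, or 1, 2 or 3 of eNpHR-EYFP was left out, with differences of 0.39 to 0.55. The platform annotation lists no RefSeq mRNA for this probe, and the dimmer Irs1 probe that has one, 10356084, read 2.0, 2.0, 2.07 and 2.10, then 2.04, 2.07, 2.17 and 2.17, and 2.10, 2.49, 2.41 and 2.38 in the same order of groups. There the eNpHR-EYFP arrays overlapped the EGFP arrays through replicate 1, and the difference was 0.27 ± 0.08 (adjusted p = 0.0296). Irs2 differed by 0.06, with a 95% interval of -0.19 to 0.31.

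Of the 4 measured PI3-kinase subunits, 1 was called. Pik3ca, the catalytic subunit alpha, read 3.47, 3.12, 3.43 and 3.41 at 110 days, 3.61, 3.81, 3.93 and 3.84 at 220 days and 3.35, 3.10, 2.89 and 3.19 with eNpHR-EYFP. The 220-day arrays were highest and lay above all others, and the eNpHR-EYFP arrays overlapped those of 110 days, where replicate 2 was low. The difference from the mean of both ages was -0.44 ± 0.10 (adjusted p = 0.00823), and -0.49 after quantile normalization (adjusted p = 0.00559). Against each age on its own it was -0.66 ± 0.12 for 220 days (adjusted p = 0.00279) and -0.23 ± 0.12 for 110 days (adjusted p = 0.21). Pik3cb, the beta catalytic subunit, differed by 0.05 (95% interval -0.18 to 0.27), and the regulatory subunit genes Pik3r1 and Pik3r2 by 0.06 (-0.14 to 0.27) and 0.03 (-0.24 to 0.30).

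Among the kinases downstream, Gsk3b was higher on the deposited scale. The gene for the central kinase PDK1 and the AKT gene Akt1 were not called there, while the call of Akt2 depended on the probe. Gsk3b encodes glycogen synthase kinase 3 beta, which AKT inhibits. It read 3.31, 3.41, 3.10 and 3.23 at 110 days, 3.70, 3.64, 3.42 and 3.43 at 220 days and 4.21, 3.94, 3.75 and 3.74 with eNpHR-EYFP. The 3 groups did not overlap, with 110 days lowest and eNpHR-EYFP highest. The difference from the mean of both ages was 0.51 ± 0.11 (adjusted p = 0.00429), and 0.41 after quantile normalization (adjusted p = 0.0114). Against 220 days alone it was 0.36 ± 0.12 (adjusted p = 0.0555).

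Pdpk1, the gene for PDK1, read 4.67, 4.91, 4.81 and 4.88 at 110 days, 5.26, 4.74, 4.68 and 4.88 at 220 days and 4.95, 4.92, 4.75 and 4.22 with eNpHR-EYFP. Replicate 4 of eNpHR-EYFP lay below all other arrays, and the remaining values overlapped. The difference was -0.14 on the deposited scale (95% interval -0.46 to 0.18) and -0.42 after quantile normalization (adjusted p = 0.0407). Akt1 differed by 0.03 (-0.24 to 0.30).

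Akt2 is read by 2 probes that disagreed. The brighter one, 10374364, gave a difference of 0.11 ± 0.15 (adjusted p = 0.643), but 19 of the 20 probes next to it in the table that name a gene belong to chromosome 11, while Akt2 lies on chromosome 7. All 20 neighbours of the other probe, 10551393, belong to chromosome 7. It read 2.58, 3.12, 2.58 and 2.56 at 110 days, 2.43, 3.05, 1.43 and 2.41 at 220 days and 4.08, 3.57, 3.02 and 2.83 with eNpHR-EYFP. Replicate 3 of 220 days was far below the rest, and the eNpHR-EYFP arrays overlapped the EGFP arrays through replicates 3 and 4. That probe differed by 0.85 ± 0.29 (adjusted p = 0.0472), so Akt2 is given as uncertain. The counts of members use the brighter probe, which was not called.

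Sgk1, a kinase related to AKT that mTOR complex 2 activates, read 2.89, 3.15, 2.96 and 2.68 at 110 days, 2.46, 2.96, 2.89 and 2.93 at 220 days and 3.10, 2.85, 3.63 and 3.83 with eNpHR-EYFP. Replicates 3 and 4 of eNpHR-EYFP lay above all EGFP arrays, and replicates 1 and 2 lay among them. The difference of 0.49 ± 0.18 did not pass (adjusted p = 0.0631), and it passed without replicate 2 of eNpHR-EYFP, where it was 0.66 (adjusted p = 0.0173).

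At the switch above mTOR complex 1, Rheb was higher and both TSC genes were not called. Rheb, which encodes the GTPase that activates the complex, read 8.26, 8.14, 8.12 and 8.20 at 110 days, 8.42, 8.24, 8.04 and 8.26 at 220 days and 8.96, 8.80, 8.93 and 8.81 with eNpHR-EYFP. The 4 eNpHR-EYFP values had an SD of 0.08 and lay above every EGFP value. The difference was 0.66 ± 0.08 (adjusted p = 0.000142), a 1.58-fold higher intensity, and it passed in all 12 fits that each left out 1 array. After quantile normalization it was 0.13 (adjusted p = 0.3), so the call rests on the deposited scale. Tsc1 and Tsc2, whose products form the complex that turns RHEB off, differed by 0.15 (95% interval -0.12 to 0.41) and 0.01 (-0.19 to 0.21).

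Of the 5 genes of the mTOR complexes, the kinase and both defining subunits were higher, all read from dim probes. Their means over the EGFP arrays, 2.80 for Mtor, 2.36 for Rptor and 2.47 for Rictor, lay below the median of all genes, 2.86. No fold is given for them. Mtor, the shared kinase, read 2.91, 2.83, 2.81 and 2.72 at 110 days, 2.83, 2.70, 2.83 and 2.81 at 220 days and 3.14, 3.04, 2.96 and 3.07 with eNpHR-EYFP. All eNpHR-EYFP values lay above all EGFP values, by a small margin. The difference was 0.25 ± 0.07 (adjusted p = 0.0179), and 0.23 after quantile normalization (adjusted p = 0.032). Without replicate 1 of eNpHR-EYFP it was 0.22 and no longer passed (adjusted p = 0.0607).

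Rptor encodes RAPTOR, which defines mTOR complex 1. It read 2.38, 2.58, 2.20 and 2.63 at 110 days, 2.43, 2.20, 2.20 and 2.23 at 220 days and 2.77, 2.58, 2.91 and 2.79 with eNpHR-EYFP. The 220-day arrays lay below the eNpHR-EYFP arrays, while replicates 2 and 4 of 110 days reached the lowest eNpHR-EYFP array. The difference was 0.40 ± 0.10 (adjusted p = 0.0106) under the deposited scale and 0.40 after quantile normalization (adjusted p = 0.012).

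Rictor encodes the subunit that defines mTOR complex 2. It read 2.41, 2.20, 2.68 and 2.61 at 110 days, 2.46, 2.54, 2.46 and 2.38 at 220 days and 2.89, 2.87, 2.87 and 2.98 with eNpHR-EYFP. All eNpHR-EYFP values lay above all EGFP values and were closer together than those of 110 days. The difference was 0.44 ± 0.09 (adjusted p = 0.0043), and 0.43 after quantile normalization (adjusted p = 0.00456).

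Mlst8, a subunit of both complexes, differed by -0.08 (95% interval -0.44 to 0.28) and spread most at 110 days, from 2.32 to 3.20. Deptor, an inhibitor of both complexes, read 3.96, 4.07, 3.52 and 4.04 at 110 days, 3.98, 3.70, 3.82 and 4.02 at 220 days and 3.55, 3.84, 3.19 and 3.42 with eNpHR-EYFP. Replicates 3 and 4 of eNpHR-EYFP lay below all EGFP arrays, and replicates 1 and 2 lay within their range. Its difference of -0.39 ± 0.14 missed the threshold (adjusted p = 0.0519) and passed after quantile normalization, where it was -0.49 (adjusted p = 0.0244). It also passed when replicate 3 of 110 days (-0.45) or eNpHR-EYFP replicate 2 (-0.50) was left out.

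The measured mRNA levels of genes whose products lie downstream of mTOR complex 1 did not move one way. Activity of the complex was not measured. Eif4e encodes the protein that binds the mRNA cap and starts translation. It read 7.36, 6.98, 7.20 and 6.97 at 110 days, 7.51, 7.40, 7.63 and 7.23 at 220 days and 8.02, 8.17, 7.96 and 7.55 with eNpHR-EYFP. Replicates 1, 2 and 3 of eNpHR-EYFP lay above all EGFP arrays, and replicate 4 overlapped the 220-day arrays. The difference was 0.64 ± 0.13 (adjusted p = 0.00318), a 1.56-fold higher intensity, and 0.13 after quantile normalization (adjusted p = 0.51).

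The other Eif4e probes gave different values. Probe 10599855, with 19 of 20 neighbours on the X chromosome while Eif4e lies on chromosome 3, read 5.77, 5.55, 5.54 and 5.37 at 110 days, 5.79, 5.65, 5.23 and 5.57 at 220 days and 6.76, 6.69, 6.69 and 6.71 with eNpHR-EYFP. All eNpHR-EYFP values lay above all EGFP values there, with a difference of 1.15 ± 0.11 (adjusted p = 2.57e-05). Probe 10496490, with all 20 neighbours on chromosome 3, differed by -0.08 (adjusted p = 0.567). Whether each of these probes reads Eif4e alone was not tested, so the value of Eif4e is given as uncertain. The counts of members use its brightest probe.

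Eif4ebp1 encodes the repressor of eIF4E that mTOR complex 1 inactivates. It read 3.62, 4.36, 4.40 and 3.09 at 110 days, 3.49, 3.94, 4.08 and 3.89 at 220 days and 4.40, 3.38, 4.52 and 5.29 with eNpHR-EYFP. The arrays of 110 days and of eNpHR-EYFP each spread over more than 1 log2 unit and overlapped. On the 110-day arrays its low values fell on replicates 1 and 4, the arrays low in Arr3, and that relation was not tested. Its difference was 0.54 with a 95% interval of -0.18 to 1.26 (adjusted p = 0.253). It was 0.88 without replicate 2 of eNpHR-EYFP (adjusted p = 0.04996), 0.24 without replicate 4 of that group (adjusted p = 0.616), and 0.28 without both 110-day arrays low in Arr3 (adjusted p = 0.559).

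Hif1a encodes the oxygen-regulated subunit of hypoxia-inducible factor 1, whose synthesis mTOR complex 1 promotes. It read 5.59, 5.11, 4.74 and 5.07 at 110 days, 5.71, 5.38, 5.52 and 5.46 at 220 days and 5.36, 5.0, 4.38 and 3.91 with eNpHR-EYFP. Replicates 3 and 4 of eNpHR-EYFP lay below all EGFP arrays, and replicates 1 and 2 lay within their range. The difference of -0.66 ± 0.24 did not pass on the deposited scale (adjusted p = 0.0605) and was -0.96 after quantile normalization (adjusted p = 0.00856). It passed when replicate 3 of 110 days (-0.72) or eNpHR-EYFP replicate 1 (-0.89) was left out, and was -0.41 without eNpHR-EYFP replicate 4 (adjusted p = 0.179). The 12-gene cone mean was highest on replicates 3 and 4 of eNpHR-EYFP, at 7.98 and 8.32, and the Müller glia mean was lowest on the same arrays within that group, at 6.52 and 6.36. Their part in the Hif1a values was not tested.

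Ulk1 encodes the kinase that starts autophagy and that mTOR complex 1 restrains. It read 3.09, 2.94, 2.98 and 2.98 at 110 days, 2.91, 2.87, 3.15 and 3.12 at 220 days and 2.63, 2.93, 2.61 and 2.74 with eNpHR-EYFP. Replicates 1, 3 and 4 of eNpHR-EYFP lay below all EGFP arrays, and replicate 2 lay among them. The difference was -0.28 ± 0.09 (adjusted p = 0.034) and -0.28 after quantile normalization (adjusted p = 0.0329). The call was lost when replicate 1 of 110 days, 3 or 4 of 220 days, or 1, 3 or 4 of eNpHR-EYFP was left out, with differences of -0.28 to -0.24.

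Of the FOXO factors, Foxo1 was higher and Foxo3 was not called. Foxo1, a transcription factor that AKT inactivates and that acts when insulin signalling is low, read 3.86, 3.86, 3.67 and 3.51 at 110 days, 3.54, 3.35, 3.71 and 3.94 at 220 days and 4.73, 4.57, 4.62 and 4.28 with eNpHR-EYFP. All eNpHR-EYFP values lay above all EGFP values. The difference was 0.87 ± 0.13 (adjusted p = 0.000425), a 1.83-fold higher intensity, and 0.68 after quantile normalization (adjusted p = 0.00198). It was 0.83 ± 0.15 against 110 days and 0.92 ± 0.15 against 220 days. Foxo3 differed by 0.14, with a 95% interval of -0.14 to 0.42.

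Among the energy and stress inputs, 1 of 6 was called. Prkaa1, the catalytic subunit alpha 1 of AMP-activated kinase, read 2.63, 3.68, 3.23 and 2.87 at 110 days, 2.79, 3.55, 3.19 and 2.93 at 220 days and 4.05, 3.97, 3.15 and 4.04 with eNpHR-EYFP. Replicates 1, 2 and 4 of eNpHR-EYFP lay above all EGFP arrays, and replicate 3 lay in the middle of them. In both EGFP groups replicate 2 was highest and replicate 1 lowest. The difference was 0.70 ± 0.23 (adjusted p = 0.0406), and 0.61 after quantile normalization (adjusted p = 0.0737). The call held in 3 of the 12 fits that each left out 1 array and was lost without replicate 1, 3 or 4 of either EGFP age or replicate 1, 2 or 4 of eNpHR-EYFP, with differences of 0.61 to 0.72. Without replicates 1 and 4 of 110 days together it was 0.52 (adjusted p = 0.124).

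Prkaa2, the alpha 2 subunit, differed by 0.09 (95% interval -0.09 to 0.28), and its 4 eNpHR-EYFP values were all 2.32. The sestrin genes Sesn1 and Sesn2, whose products hold mTOR complex 1 back under stress and leucine shortage, differed by -0.11 (-0.42 to 0.20) and 0.24 (0.03 to 0.45). Sesn2 missed the threshold against the mean of both ages (adjusted p = 0.0871) and passed without replicate 4 of 110 days, where it was 0.27 (adjusted p = 0.0478). Against 110 days alone Sesn2 was higher by 0.38 ± 0.11 (adjusted p = 0.0275), and against 220 days by 0.10 ± 0.11 (adjusted p = 0.596). Ddit4, known as REDD1, which acts through the TSC complex, differed by 0.29 (0.05 to 0.52, adjusted p = 0.0698). Txnip, which binds thioredoxin and limits glucose uptake, differed by 0.28 (0.00 to 0.57, adjusted p = 0.127), and by 0.40 without replicate 3 of eNpHR-EYFP (adjusted p = 0.0397).

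**Figure D3:**
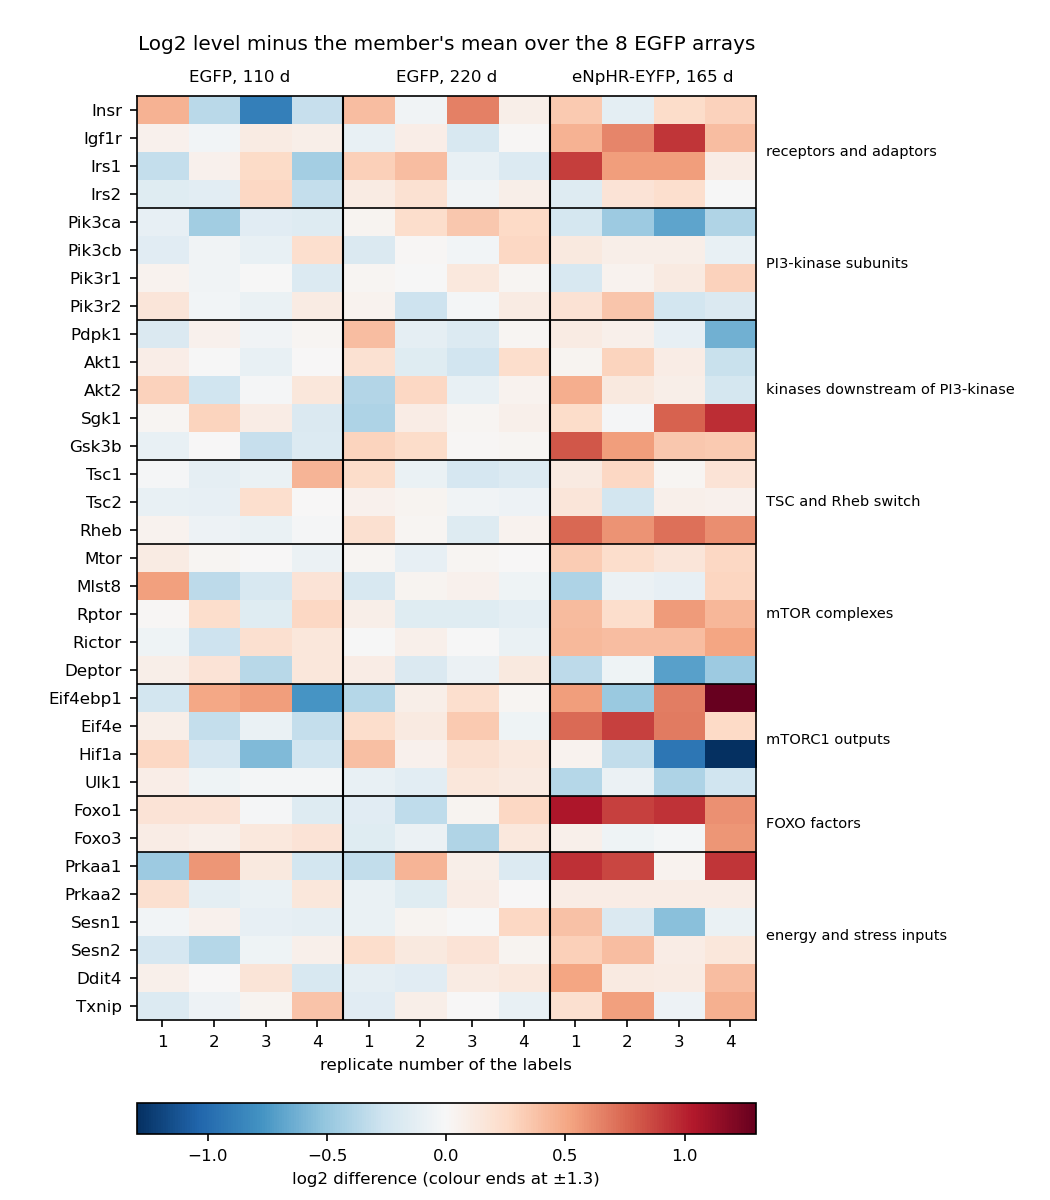
Log2 level of each of 33 members on each array minus that member's mean over the 8 EGFP arrays (colour scale in log2 units, ending at ±1.3), ordered by role, with the 3 groups side by side. Foxo1, Rheb and Igf1r are above 0 on all 4 eNpHR-EYFP arrays, while Eif4ebp1, Insr and Prkaa1 also vary within the EGFP groups.

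Of the 21 members not called against the mean of both ages, 14 had a 95% interval within 0.5 log2 units of 0 on both sides. The SD within a group ran from 0 to 0.785 over the members, with a median of 0.189. At 8 members, Foxo3, Mlst8, Pik3r1, Prkaa2, Rictor, Rptor, Sesn2 and Txnip, the mean over all arrays lay at or below the median of all genes, 2.86. Over the EGFP arrays alone Igf1r and Mtor did so too, which makes 10 members. No detection value was used here, so whether genes with such dim probes were expressed was not tested, and their differences can be understated.

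Each EGFP age was also taken on its own, with both comparisons sharing the eNpHR-EYFP arrays. Against 110 days 9 members were higher (27.3%, where 19.9% of all genes were) and 0 lower (where 8.11% of all genes were). By limma 14 members had an unadjusted p under 0.05 in that comparison, 42.4%, which is near the 41% of all genes. After quantile normalization 5 were higher (15.2%, against 13.6% of all genes) and 2 lower, Deptor and Hif1a (6.06%, against 9.64%). Against 220 days 7 were higher (21.2%, against 17.8% of all genes) and 2 lower, Hif1a and Pik3ca (6.06%, against 7.4%), and after quantile normalization 4 were higher (12.1%, against 11.3%) and 2 lower (6.06%, against 9.35%). Hif1a differed from 220 days by -0.85 ± 0.28 (adjusted p = 0.0471) and from 110 days by -0.46 ± 0.28 (adjusted p = 0.261). Eif4e, Foxo1, Igf1r, Mtor, Rheb and Rictor, 6 members, were higher than each age (18.2%, against 15% of all genes). After quantile normalization Foxo1, Igf1r and Rictor, 3 members, were (9.09%, against 9.27%). There Rheb (adjusted p = 0.346 against 110 days and 0.455 against 220 days), Eif4e (0.24 and 0.977) and Mtor (0.0672 and 0.0679) passed against neither age.

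The age comparison asked whether the members differed between 220 and 110 days in EGFP cones. By limma 0 of 33 members passed, and 0% of all 19902 genes did. At an unadjusted p under 0.05 there were 3 members, 9.09%, against 6.14% of all genes. Pik3ca was higher at 220 days by 0.44 ± 0.12 (adjusted p = 0.593), Sesn2 by 0.29 ± 0.11 (adjusted p = 0.71) and Gsk3b by 0.29 ± 0.12 (adjusted p = 0.731), and none passed. At Pik3ca and Gsk3b the 2 ages did not overlap, which is 6.06% of members against 3.87% of all genes. Insr read higher at 220 days by 0.54, with a 95% interval of -0.00 to 1.09, and the members' median was -0.01.

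The members were then set beside 153 other measured genes of the same pathways, in 10 lists with 160 entries. Against the mean of both EGFP ages 56 of these were higher and 14 lower, 36.6% and 9.15%, where 23% and 10.1% of all genes were. After quantile normalization 38 were higher and 20 lower, 24.8% and 13.1%, against 16.1% and 12.4% of all genes. The calls under both scalings shared 38 higher and 14 lower genes. Named below from each list are at most the 4 genes with the lowest unadjusted limma p, besides the genes lower under both scalings. The median difference over the 153 genes was 0.24 on the deposited scale and 0.07 after quantile normalization, against 0.07 and 0.02 over all genes. The shares of these genes, of each list and of all genes were not compared at equal level.

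**Figure D4:**
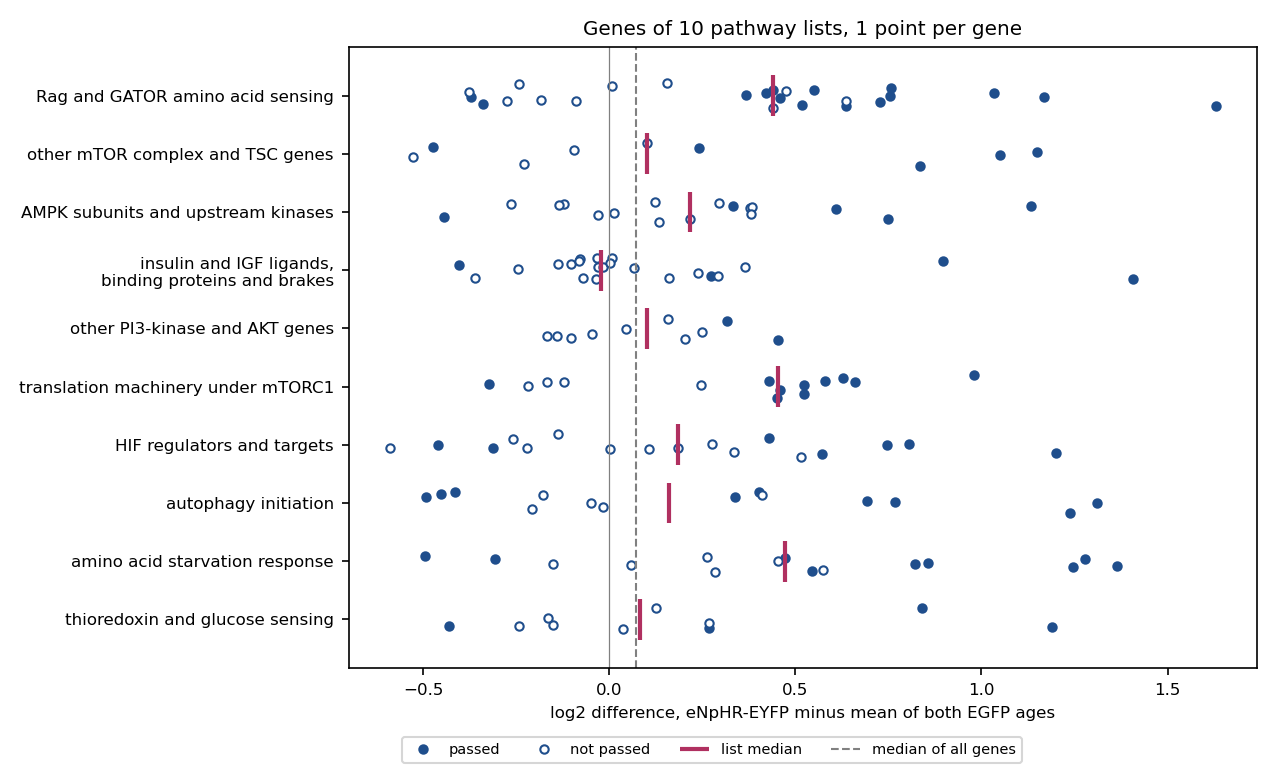
Log2 difference between eNpHR-EYFP and the mean of both EGFP ages (horizontal axis) for each measured gene of 10 pathway lists, filled where the adjusted p was under 0.05, with each list's median as a red bar and the median of all genes, 0.07, as a dashed line. The medians of the amino acid starvation, translation and Rag and GATOR lists lie at 0.47, 0.45 and 0.44, and that of the insulin and IGF ligand list at -0.02.

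Amino acid sensing above mTOR complex 1 runs through the Rag GTPases and the GATOR complexes. Of 25 measured genes of this list 13 were higher and 2 lower (median 0.44), and after quantile normalization 8 and 4, with a median of 0.20. Depdc5, another GATOR1 gene, and Fnip1 were lower on both scales. Mios, a subunit of GATOR2, was higher by 1.63 ± 0.15 (adjusted p = 2.97e-05), and Nprl3, a subunit of the inhibitory GATOR1, by 1.03 ± 0.14 (adjusted p = 0.000236). Lamtor4, a part of the lysosomal Ragulator, was higher by 0.76 ± 0.10 and Sec13, shared by GATOR2 and vesicle coats, by 0.73 ± 0.09. After quantile normalization these 2 were higher by 0.24 and 0.31.

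Of 9 other genes of the mTOR and TSC complexes 4 were higher and 1 lower (median 0.10), and after quantile normalization 3 and 1, with a median of -0.13. Tbc1d7, the third TSC subunit, was higher by 1.15 ± 0.15 (adjusted p = 0.00024). Tti2 and Tti1, co-chaperones that help assemble mTOR, were higher by 1.05 ± 0.21 and 0.84 ± 0.22, and Prr5, a subunit of mTOR complex 2, was lower, with -0.47 ± 0.10 (adjusted p = 0.00388). The called genes included partners and a brake of the kinase.

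In the AMP-activated kinase list 4 of 17 genes were higher and 1 lower (median 0.22), and 23.5% higher is near the 23% of all genes. After quantile normalization the median was 0.11, with 2 higher and 1 lower. Strada and Cab39, partners of the upstream kinase LKB1, were higher by 0.75 ± 0.09 and 0.61 ± 0.09 (adjusted p = 0.000184 and 0.000597). Stradb was higher by 0.33 ± 0.10 but not after quantile normalization (adjusted p = 0.0777), and the kinase gene Map3k7 was lower, with -0.44 ± 0.12.

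Among 22 ligands, binding proteins and brakes of insulin and IGF signalling 3 were higher and 1 lower (median -0.02), and after quantile normalization 2 and 1, with a median of -0.04. The higher share was 13.6%, below the 23% of all genes. Ptpn1, the phosphatase that removes phosphate from the insulin receptor, was higher by 1.41 ± 0.12 (adjusted p = 1.4e-05), and by 1.27 after quantile normalization. Igfbp3 was lower, with -0.40 ± 0.07, and Ins2, an insulin gene read near the dim end, was higher by 0.27 ± 0.08. Igfbp2 was higher by 0.90 ± 0.31 on the deposited scale alone (0.45, adjusted p = 0.309, after quantile normalization). Of 10 other PI3-kinase and AKT genes 2 were higher and 0 lower on both scales, namely Pik3c2a by 0.32 ± 0.09 and Pik3cg by 0.45 ± 0.15. The higher share was 20% on both scales, near the 23% of all genes on the deposited scale and the 16.1% after quantile normalization. On the deposited scale these 2 were also the only ones of the 10 with an unadjusted limma p under 0.05.

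Of 14 genes of the translation machinery under mTOR complex 1, 9 were higher and 1 lower (median 0.45), 64.3% and 7.14%, against 23% and 10.1% of all genes. After quantile normalization 5 were higher and 2 lower, 35.7% and 14.3% against 16.1% and 12.4%, with a median of 0.27. Eif4b was lower on both scales. The helicase gene Eif4a1 was higher by 0.98 ± 0.15, its helper Eif4h by 0.58 ± 0.09, and Larp1, which binds the mRNAs of the translation machinery, by 0.63 ± 0.08 (adjusted p = 0.000286). After quantile normalization the differences of Eif4a1 and Eif4h were 0.47 and 0.29, and both passed. Rps6kb2, the gene of S6 kinase 2, was higher by 0.52 ± 0.09, and by 0.27 after quantile normalization, where it did not pass (adjusted p = 0.0644).

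Of 14 autophagy genes 6 were higher and 3 lower (median 0.16), and after quantile normalization 4 and 3, with a median of -0.05. Atg13, a partner of ULK1, was higher by 1.31 ± 0.11 (adjusted p = 1.54e-05), while Ulk1 itself was lower. Gabarapl1 and Map1lc3b, which coat autophagosomes, were higher by 1.24 ± 0.14 and 0.77 ± 0.11, and the regulator gene Ambra1 by 0.40 ± 0.08. Rb1cc1, Pik3r4 and Tfeb were lower on both scales. Map1lc3b was higher by 0.36 after quantile normalization.

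In the list of HIF regulators and targets 5 of 17 were higher and 2 lower (median 0.19). These are 29.4% and 11.8%, where 23% and 10.1% of all genes were called. After quantile normalization the median was -0.02, with 4 higher and 4 lower, so that the higher calls no longer outnumbered the lower ones. The prolyl hydroxylase genes Egln2 and Egln1, whose products mark HIF for removal, were higher by 1.20 ± 0.11 (adjusted p = 2.26e-05) and 0.75 ± 0.13. Vhl, which completes that step, was higher by 0.57 ± 0.10, and the third hydroxylase, Egln3, was lower, with -0.46 ± 0.09 (adjusted p = 0.00243). All 4 kept their call after quantile normalization, where Egln2 was higher by 0.71, and Hif1a was called lower only there. Pgk1 was lower on both scales.

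The amino acid starvation list had 7 of 15 genes higher and 2 lower (median 0.47), and after quantile normalization 5 and 2, with a median of 0.27. Eif2ak4 and Slc7a11 were lower on both scales. Ddit3 and Ppp1r15a, stress genes downstream of ATF4, were higher by 1.36 ± 0.25 and 1.28 ± 0.15, and after quantile normalization by 0.87 and 1.17. Vldlr, a lipoprotein receptor gene, was higher by 1.25 ± 0.14 and Slc7a5, a leucine transporter gene, by 0.47 ± 0.10. Of 10 thioredoxin and glucose sensing genes 3 were higher and 1 lower (median 0.08), and after quantile normalization 3 and 2, with a median of -0.02. On the deposited scale these are 30% and 10%, where 23% and 10.1% of all genes were called. The thioredoxin genes Txn2 and Txn1 were higher by 1.19 ± 0.11 and 0.84 ± 0.10 (0.67 and 0.32 after quantile normalization), Mlxip, a glucose-sensing factor that drives Txnip, by 0.27 ± 0.08, and the glucose transporter gene Slc2a3 was lower, with -0.43 ± 0.10.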

How the data were processed

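The data are 12 arrays of RNA from sorted cones. Per the labels, the RNA came from a PicoPure isolation and was biotinylated following Affymetrix's method for whole transcripts. For 34760 probes the deposited table holds a linear intensity, from 1.7 to 10242.1. The tools named per the submitters' notes are RMA and affy, without versions. Here log2 of the intensity was taken, without a pseudocount.

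Each EGFP column has 34729 values, which from line 13588 on stood 2 to 31 lines away from their probes. They were aligned to the eNpHR-EYFP profile by a forward-backward algorithm (t distribution with 3 degrees of freedom, scale 0.25, loss probability 0.001, posterior of at least 0.999). This left out 114 values and raised the typical correlation of EGFP with eNpHR-EYFP arrays from 0.421 to 0.944 (medians over pairs). The repair uses the likeness of both sets of arrays, and its effect on the differences of moved probes was not tested. A fit on the lines in place leaves those probes out, so it cannot test it. Probes were named from the platform annotation, in which 21640 name 1 gene and 1321 several, and a gene was read from its brightest probe that names it alone. Neighbouring probes' chromosomes were taken from RefSeq. The genome build of the array was not among the sources.

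The test was that of limma (version 3.58.1, R 4.3.3), fitted once to all 12 arrays in 3 groups, with Benjamini-Hochberg adjustment over 34615 probes and a threshold of 0.05. The code was tested on simulated data. Genes named are all members, at most the 4 of each pathway list with the lowest unadjusted p, and a set of cell markers. The 14 pathway genes lower under both scalings were added after the data were seen. The members and lists were chosen with earlier results of these data known. Alternatives were quantile normalization, median centring, another variance prior (trended and robust), a filter at the median level, array weights, a replicate block, adjustment over genes, averaged probes of a gene, lines in place, fits of the compared groups alone, and leaving out each array or both 110-day arrays low in Arr3. After the data were seen, each member's other probes were added. With 4 arrays in each group, precision is limited.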

Additional observations from a re-analysis of the deposited data

Results flagged for a closer look

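In groups of 4 arrays, the gap of an extreme array to its nearest neighbour, as a share of the group's range, was compared with Dixon's 95% critical value for 4 values. Of 99 such groups of members, 4 exceeded it, where chance gives about 1 in 20. Prkaa1 on replicate 3 of eNpHR-EYFP read 3.15 while the other 3 arrays read 3.97 to 4.05, a share of 0.911. Rptor on replicate 1 of 220 days read 2.43 against 2.20 to 2.23, a share of 0.866. Sgk1 on the same array read 2.46 against 2.89 to 2.96, a share of 0.849. Mtor on replicate 2 of 220 days read 2.70 against 2.81 to 2.83, a share of 0.839.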

How the results depend on the processing

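Of the 12 members called against the mean of both EGFP ages, Foxo1, Gsk3b, Igf1r, Pik3ca, Rictor and Rptor, 6 in all, passed under every alternative that tested them. Of these 6 the fit on the lines in place could test only Rptor, since the EGFP values of the others had been moved. The filter at the median level left out Rictor and Rptor, whose means over all arrays were 2.61 and 2.49, so it did not test them. Over all alternatives 609 of 700 member values kept their direction and side of the threshold, 36 lost a call, 26 gained one and 29 changed sign. After quantile normalization the counts were 6 higher and 5 lower against the mean of both ages, 5 and 2 against 110 days, and 4 higher against 220 days. Members called lower against the mean were 4 with the filter at the median level, when adjusted over genes, or when a gene's probes were averaged, and 1 without both 110-day arrays low in Arr3. Those called lower than 220 days were 1 with the compared groups alone, with the trended and robust prior and without both of those arrays. On the lines in place fewer genes were tested. Only 10 of the 33 members were among them, and of the 12 called members only Irs1 and Rptor. There 1 member was higher and 0 lower against the mean, with 12 pathway genes higher and 4 lower. Against 110 days 0 members were higher, and against 220 days 1 was higher and 0 lower.

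Leaving out 1 array gave 7 to 10 members higher and 1 to 4 lower against the mean, 6 to 8 higher and 0 to 2 lower against 110 days, 5 to 7 higher and 1 to 4 lower against 220 days, and 41 to 55 pathway genes higher and 10 to 15 lower. The 4 lower members against the mean came without replicate 3 of 110 days and 3 without replicate 2 of eNpHR-EYFP. The single lower member came without replicate 1 of 110 days, 3 or 4 of 220 days, or 3 or 4 of eNpHR-EYFP. Against 220 days 4 came without replicate 2 of eNpHR-EYFP, and 1 without replicate 2 or 4 of 110 days, any replicate of 220 days, or replicate 3 or 4 of eNpHR-EYFP. Against 110 days 2 lower members came without replicate 2 of eNpHR-EYFP and 1 without replicate 3 of 110 days.

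Signs changed only at members that were not called, except for Eif4e. After quantile normalization Insr was -0.29, Pik3r2 -0.062, Akt1 -0.0017, Akt2 -0.026 and Tsc2 -0.058, and with median centring Tsc2 was -0.000151. Without both arrays low in Arr3 Irs2 was -0.017, Tsc2 -0.014 and Mlst8 0.082. Other probes gave -0.044 for Insr and -0.077 for Eif4e. Leaving out 1 array gave ranges of -0.015 to 0.15 for Pik3r1, -0.079 to 0.12 for Pik3r2, -0.22 to 0.021 for Pdpk1, -0.052 to 0.14 for Akt1, -0.0086 to 0.22 for Akt2, -0.037 to 0.094 for Tsc2, -0.20 to 0.032 for Mlst8, -0.0020 to 0.21 for Foxo3 and -0.28 to 0.034 for Sesn1. The cause of these changes was not tested.

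Arrays with the same replicate number deviated together with r from -0.04 to 0.14 over 12 pairs, above 0.1 in 2, which were pairs of replicate 1. Such correlations cannot show whether arrays of the same number share an animal or a batch, and this was not tested. With the replicate block 10 members were higher and 3 lower against the mean, with 52 and 13 pathway genes, 7 and 0 against 110 days, 7 and 2 against 220 days, and 0 with age.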
